A study of Mus musculus with 9 samples.

Results

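The Zfp genes are mouse genes whose symbol is Zfp followed by a number, the gene nomenclature's name for a zinc finger protein that was numbered rather than named by function. Of 14771 genes in the deposited table, 334 carry such a symbol once Zfp36 is set aside, and 206 of these had a mean count of at least 100 over the 9 libraries. These 206 genes are described here, and all 206 were among the 11281 genes tested. Just inside the limit lay Zfp608 with a mean count of 101.6 and Zfp606 and Zfp563 with 102.0 each, and just outside lay Zfp524 with 98.89 and Zfp975 with 98.14.

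Most proteins of this group read DNA through arrays of C2H2 zinc fingers, short loops held by a zinc ion of which each contacts a few bases. A large subgroup, the KRAB zinc finger proteins, adds an amino-terminal KRAB domain that recruits the co-repressor TRIM28 (KAP1) and, through it, the histone methyltransferase SETDB1, and many members of this subgroup silence transposable elements. KRAB zinc finger genes arose by repeated local duplication and lie in clusters on the mouse chromosomes. Per the deposited InterPro annotation, 114 of the 206 genes encoded a KRAB domain, 8 of them together with a SCAN dimerization domain, 84 had C2H2 fingers with neither domain, 3 had SCAN without KRAB, and 5 carried no C2H2 annotation.

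The RNA came from 9 libraries of the mouse alveolar macrophage line MH-S, 3 in each of 3 groups. SUR cells received 200 µM suramin, a polyanionic drug that blocks purinergic receptors, and 1 µg/ml lipopolysaccharide (LPS) for 4 h, LPS cells received 1 µg/ml LPS, the bacterial cell wall component sensed by TLR4, for 4 h, and CON cells received medium. The sample labels of SUR name suramin alone, and the combination with LPS comes from the treatment protocol. No group with suramin alone was analysed here, and all cells came from 1 established line. Nothing in the labels says whether replicates were separate cultures; p-values here reflect spread among these libraries, which may be technical.

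Total counts ran from 15729402 to 16675250 per library. The 8 LPS response genes used as a treatment check all rose in LPS against CON, and 9 of 12 macrophage markers passed the filter on low counts. None of the epithelial, lymphocyte or neutrophil markers passed it, and of the fibroblast and endothelial markers only Kdr did, with means of 0.622, 0.414 and 0.357 CPM (counts scaled to the library's total) in SUR, LPS and CON. Deviations from the group mean, correlated over genes between same-numbered libraries of 2 groups, gave 0.701 to 0.801 for number 1, against 0.435 to 0.586 for numbers 2 and 3. The libraries numbered 1 thus share the strongest deviation. Deviations within a group cancel for each gene, so the values for numbers 2 and 3 can follow from number 1 alone. Counts are also given without the 3 libraries numbered 1 and with the replicate number as a block. In bulk RNA, fewer cells that express a gene and less RNA per cell cannot be told apart.

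In LPS against CON the Zfp genes were mostly lower, with a log2 fold change below 0 in 156 of 206. At an adjusted p below 0.05 (edgeR's quasi-likelihood test, Benjamini-Hochberg adjustment over all 11281 genes), 84 of 206 (40.8%) fell, where 9.36% of all tested genes fell, and 15 (7.28%) rose, where 8.98% of all tested genes rose. The median log2 fold change of the 206 was -0.32, with quartiles of -0.72 and -0.01. The 8852 other tested genes of similar mean count, between 101.6 and 5924, had a median of 0.00, with 785 (8.87%) lower and 858 (9.69%) higher. In 109 of the 206 Zfp genes (52.9%) all 3 LPS libraries lay below all 3 CON libraries, against 16.5% of the other genes of similar mean count. Changes of at least 2-fold were seen in 29 of the genes that fell and 2 of those that rose. Among the 8852 other genes of similar mean count, 97 of those that fell and 293 of those that rose changed this much.

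In SUR against LPS the direction was the opposite: 98 of 206 (47.6%) rose, where 9.29% of all tested genes rose, and 8 (3.88%) fell, where 7.93% of all tested genes fell. The median log2 fold change of the 206 was 0.40, against -0.02 for the other genes of similar mean count, of which 758 rose and 777 fell. All 3 SUR libraries lay above all 3 LPS libraries for 128 Zfp genes (62.1%), against 16.3% of the other genes. This comparison and LPS against CON share the 3 LPS libraries, so their opposite signs are not independent of each other.

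SUR against CON does not set the LPS libraries against another group, though they enter the estimate of spread. In it 1 Zfp gene rose, where 0.39% of all tested genes rose, and 0 fell, where 0.0355% of all tested genes fell. At an unadjusted p under 0.05 in edgeR, 23 of 206 Zfp genes were higher and 2 lower, where 704 and 337 of all 11281 tested genes were. At the adjusted threshold DESeq2 called 6 higher and 0 lower, where it called 1.99% and 0.293% of all tested genes. At the same threshold limma-voom called 1 higher and 0 lower, where it called 0.408% and 0.0266% of all tested genes. The median log2 fold change was 0.07, against -0.02 for the other genes of similar mean count. For 149 of the 206 genes (72.3%) the 95% confidence interval of the SUR against CON difference lay within 0.5 log2 units of 0 on both sides; the same held for 77.6% of the other genes. For LPS against CON the interval lay within this range for 74 Zfp genes (35.9%), against 62.6% of the other genes.

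The median over the 206 genes of log2 CPM minus the CON mean was 0.11, 0.05 and 0.06 in SUR libraries 1 to 3, -0.24, -0.35 and -0.30 in the LPS libraries, and 0.01, -0.02 and 0.01 in the CON libraries. Each LPS library lay below each of the other 6 libraries. The median SD of log2 CPM between the 3 libraries of a group was 0.11 in SUR, 0.16 in LPS and 0.12 in CON for the Zfp genes, against 0.12, 0.13 and 0.13 for the other genes of similar mean count. Within same-numbered libraries, the median LPS minus CON difference was -0.23, -0.36 and -0.32 for numbers 1, 2 and 3, and the SUR minus LPS difference was 0.36, 0.40 and 0.39. For the other genes of similar mean count no median of either kind was larger than 0.03 in size.

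With the replicate number as a block, 122 Zfp genes fell and 24 rose in LPS against CON, where 21.7% and 20.1% of all tested genes did. In SUR against LPS 141 rose and 20 fell under the block, where 22.6% and 22.7% of all tested genes did. In SUR against CON 22 rose and 3 fell under the block, where 7.37% and 4.18% of all tested genes did. Without the libraries numbered 1, 107 Zfp genes were lower and 23 higher in LPS against CON, where 14.5% and 15.8% of all tested genes were. In SUR against LPS 118 were higher and 17 lower without them, where 14.7% and 15.3% of all tested genes were. In SUR against CON 9 (4.37%) were higher and 0 lower without them, where 4.46% and 0.747% of all tested genes were, so the share of rises was close to that of all genes.

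**Figure D1:**
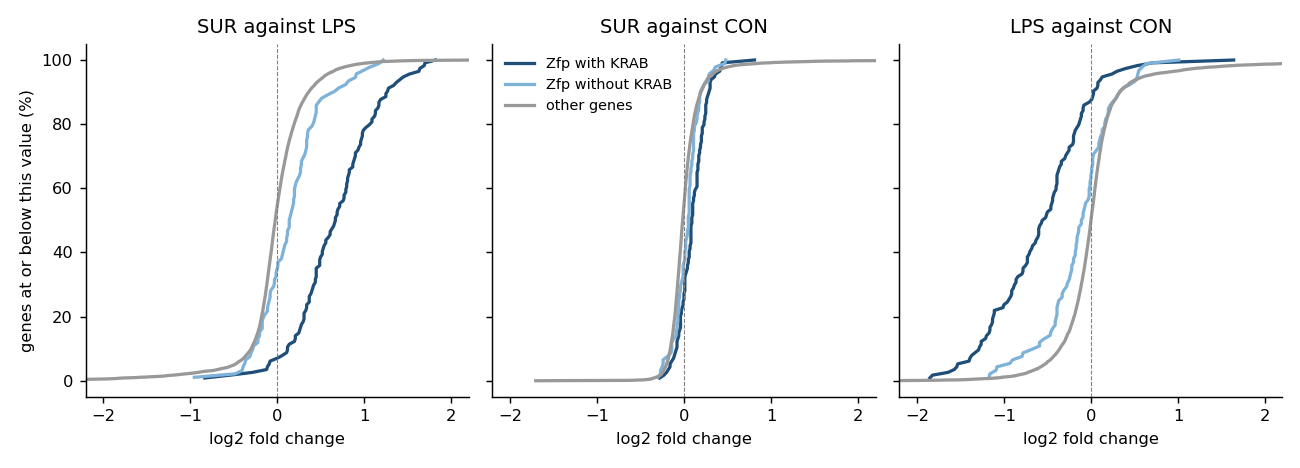
Cumulative share of genes (vertical axis, percent) at or below each log2 fold change (horizontal axis) in SUR against LPS, SUR against CON and LPS against CON, for 114 Zfp genes with a KRAB domain, 92 without and 8852 other tested genes of similar mean count. The KRAB curve lies right of the others in SUR against LPS (median 0.67) and left of them in LPS against CON (median -0.54), and the 3 curves lie close together in SUR against CON.

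Most of the Zfp genes that fell in LPS against CON had a KRAB domain. Of the 114 KRAB genes, 65 (57.0%) fell and 4 (3.51%) rose in LPS against CON, where 9.36% and 8.98% of all tested genes did. Their median log2 fold change was -0.54. In SUR against LPS, 79 (69.3%) rose and 1 (0.877%) fell, where 9.29% and 7.93% of all tested genes did, with a median of 0.67. In SUR against CON no KRAB gene was called, where 0.39% of all tested genes rose and 0.0355% fell, and the median was 0.09. Under the replicate block 15 (13.2%) rose and 0 fell, where 7.37% and 4.18% of all tested genes did. The 92 Zfp genes without KRAB had 19 lower and 11 higher in LPS against CON, with a median of -0.10, and 19 higher and 7 lower in SUR against LPS, with a median of 0.15. The gap between the 2 subgroups is a description of their counts and medians and was not itself tested.

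KRAB genes were also the less abundant ones. Their median level was 3.75 FPKM (fragments per kilobase of transcript, scaled to depth), against 9.37 for the Zfp genes without KRAB and 17.2 for the other genes of similar count range, so the comparison was repeated within classes of mean count. From 100 to under 250 counts, 44 of 67 KRAB genes, 8 of 21 Zfp genes without KRAB and 207 of 1409 other genes fell in LPS against CON. From 250 to under 500 counts these numbers were 18 of 31, 5 of 26 and 237 of 1774, and from 500 to under 1000 counts 3 of 11, 4 of 28 and 202 of 2238. At 1000 counts or more, 0 of 5 KRAB genes, 2 of 17 Zfp genes without KRAB and 139 of 3431 other genes fell. Rises were about as common as falls from 500 to under 1000 counts, with 6 of 39 Zfp genes higher and 7 lower (median -0.02). At 1000 counts or more 5 of 22 Zfp genes rose, 2 of them KRAB genes, and 2 fell (median -0.04). Of the other genes, 214 of 2238 and 446 of 3431 rose in these classes. The excess of falls over rises among the 206 genes thus lay mostly under 500 counts. Weighting the other genes to the classes of the 206 gave 12.1% lower in LPS against CON and 11.5% higher in SUR against LPS, against 40.8% and 47.6% of the Zfp genes.

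**Figure D2:**
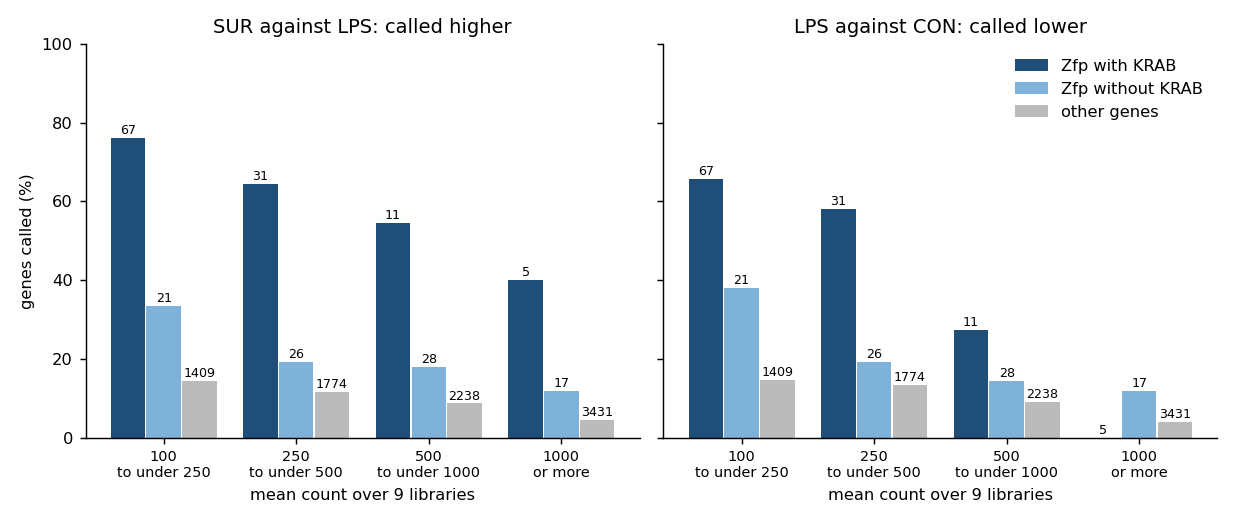
Percent of genes called higher in SUR against LPS (left) and lower in LPS against CON (right) by class of mean count over the 9 libraries, for Zfp genes with KRAB, Zfp genes without KRAB and other tested genes; the number above each bar is the genes in it. In the lowest class 76.1% of KRAB genes rose in SUR against LPS and 65.7% fell in LPS against CON, against 14.4% and 14.7% of other genes, and the gap narrows towards the highest class, which holds 5 KRAB genes.

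The same subgroup outside the naming rule gave similar numbers. Another 39 genes had a KRAB annotation, a mean count of at least 100 and a symbol that is not Zfp with a number. Of them, 19 (48.7%) were lower and 2 (5.13%) higher in LPS against CON, with a median of -0.53. In SUR against LPS 23 (59.0%) were higher and 2 (5.13%) lower, with a median of 0.70. Of all tested genes, 9.36% fell and 8.98% rose in LPS against CON, and 9.29% rose and 7.93% fell in SUR against LPS. The 145 other genes with C2H2 fingers and no KRAB went both ways in LPS against CON. Of these, 24 (16.6%) were lower and 23 (15.9%) higher, where 9.36% and 8.98% of all tested genes were. Their median was 0.01 in the main fit, -0.09 when scaled by the upper quartile and -0.12 by FPKM. In SUR against LPS 26 (17.9%) of them rose and 16 (11%) fell, where 9.29% and 7.93% of all tested genes did. Their median there was 0.11. The 86 tested Zfp-numbered genes under the count limit had 38 (44.2%) lower and 0 higher in LPS against CON, with a median of -0.70. In SUR against LPS 42 (48.8%) of them were higher and 0 lower, with a median of 0.84. These counts stand against the same shares of all tested genes. These low genes passed the filter on low counts, so they do not stand for all 128 under the limit.

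Close paralogs among these genes can share reads. Counts were whole numbers in all 9 libraries for 157 of the 206 genes and fractional in at least 1 library for the rest, as arises when reads are divided between genes. Among the 72 KRAB genes with whole counts throughout, 41 (56.9%) fell and 4 (5.56%) rose in LPS against CON, where 9.36% and 8.98% of all tested genes did. In SUR against LPS 51 (70.8%) of them rose and 1 (1.39%) fell, where 9.29% and 7.93% of all tested genes did. Among the 42 with fractional counts, 24 (57.1%) fell and 0 rose in LPS against CON, and 28 (66.7%) rose and 0 fell in SUR against LPS. The values of single genes with fractional counts, Zfp61 and Zfp398 among those named below, are uncertain to that extent.

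**Figure D3:**
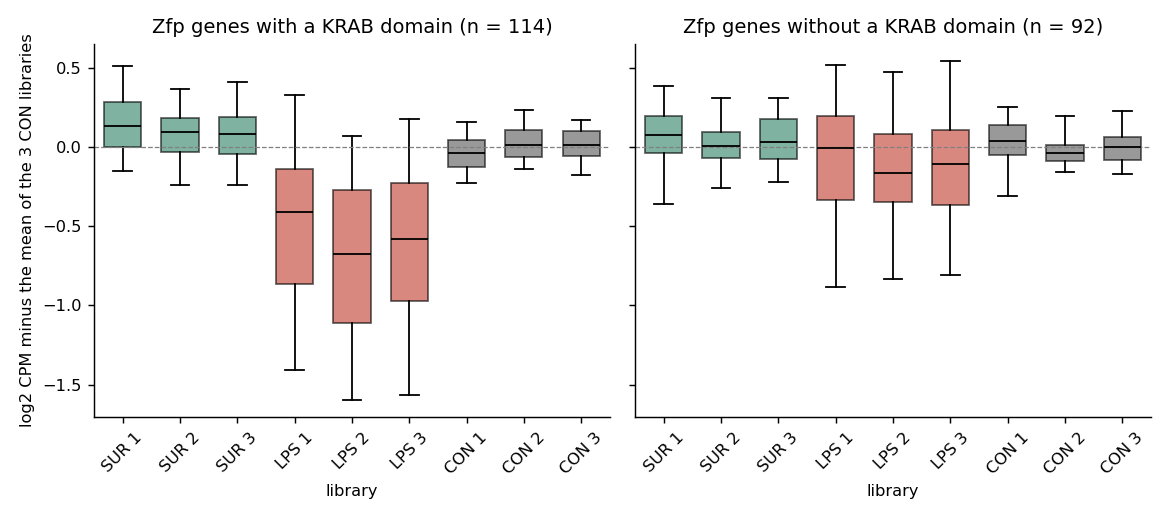
Log2 CPM minus the mean of the 3 CON libraries (vertical axis) in each library, SUR, LPS and CON from left to right, for Zfp genes with KRAB (left, n = 114) and without KRAB (right, n = 92); boxes show the quartiles with the median and whiskers the 5th and 95th percentiles. The KRAB medians were -0.41, -0.67 and -0.58 in the LPS libraries and lay between -0.04 and 0.13 in the SUR and CON libraries.

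Promoter sequences of 2 genes that fell in LPS and 2 that rose are given as picked examples, which do not stand for the group. They cover 250 bases before to 50 bases after the start listed by RefSeq (GRCm38.p6) and are written in the direction of transcription. For Zfp53 and Zfp61 that start lies inside the gene interval of the deposited table. Capitals mark the ETS core CCGGAAG, searched on both strands. The windows are chr17:21488738-21489037 (plus strand) for Zfp53, chr7:24299500-24299799 (minus strand) for Zfp61, chr16:3743849-3744148 (plus strand) for Zfp263 and chr1:136624651-136624950 (plus strand) for Zfp281.
Zfp53: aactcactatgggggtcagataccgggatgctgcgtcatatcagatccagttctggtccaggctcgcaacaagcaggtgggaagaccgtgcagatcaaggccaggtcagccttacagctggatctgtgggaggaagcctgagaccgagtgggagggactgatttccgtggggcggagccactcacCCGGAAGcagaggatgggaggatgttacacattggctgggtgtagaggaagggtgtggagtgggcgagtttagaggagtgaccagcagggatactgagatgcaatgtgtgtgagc
Zfp61: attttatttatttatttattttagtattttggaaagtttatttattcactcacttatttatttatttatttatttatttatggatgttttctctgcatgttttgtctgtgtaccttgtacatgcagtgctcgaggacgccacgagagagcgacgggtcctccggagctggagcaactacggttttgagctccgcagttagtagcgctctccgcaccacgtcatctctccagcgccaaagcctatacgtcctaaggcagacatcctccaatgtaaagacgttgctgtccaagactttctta
Zfp263: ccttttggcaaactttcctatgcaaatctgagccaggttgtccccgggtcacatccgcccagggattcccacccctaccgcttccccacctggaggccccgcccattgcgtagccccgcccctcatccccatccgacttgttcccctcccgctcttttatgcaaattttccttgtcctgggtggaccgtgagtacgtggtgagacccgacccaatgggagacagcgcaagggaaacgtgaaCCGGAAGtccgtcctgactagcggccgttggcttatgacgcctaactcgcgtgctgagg
Zfp281: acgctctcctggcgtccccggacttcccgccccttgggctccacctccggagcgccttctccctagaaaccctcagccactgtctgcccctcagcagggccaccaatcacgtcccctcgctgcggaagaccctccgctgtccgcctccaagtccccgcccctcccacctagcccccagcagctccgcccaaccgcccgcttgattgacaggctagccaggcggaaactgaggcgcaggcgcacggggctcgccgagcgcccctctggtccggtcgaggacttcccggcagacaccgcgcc

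Zfp53, which fell, and Zfp263, which rose, both hold the core on the plus strand, and the other windows hold none. The window of Zfp398, which also fell and is not printed, holds none either. The core was held by 18 of 68 promoters (26.5%) of Zfp genes that fell in LPS against CON and 4 of 12 (33.3%) of those that rose. Among the 169 Zfp genes with a RefSeq promoter, 24.9% held it, against 21.6% of the promoters of 8971 other tested genes. The shares for the CRE letters TGACGTCA were 4.14% and 3.71%, for the AP-1 letters TGACTCA 4.73% and 4.33%, and for TATAAA, searched in the direction of transcription only, 3.55% and 5.17%. None of these motifs contains another, and a match is a description of letters, not a bound site. Base composition differed more, with a median of 11 CpG dinucleotides and 53.0% GC in 99 KRAB promoters, 22 and 62.6% in 70 Zfp promoters without KRAB, and 21 and 60.7% in the other genes. Of the windows shown, Zfp61 had 41.3% GC, Zfp53 57.0%, Zfp263 60.0% and Zfp281 70.7%. The unprinted window of Zfp398, which fell, had 63.0%, more than that of Zfp263, which rose.

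Among the genes with the largest falls, Zfp563, a KRAB gene at chr17:33089367-33110707 (GRCm38), had 7.26, 8.34 and 8.19 CPM in SUR, 1.84, 2.72 and 2.18 CPM in LPS, and 6.95, 8.10 and 9.35 CPM in CON. The 3 LPS libraries lay below all others, and the SUR and CON libraries overlapped. Its log2 fold change was -1.85 ± 0.18 (SE) in LPS against CON (adjusted p = 0.0002) and 1.82 ± 0.18 in SUR against LPS (adjusted p = 0.000371). In SUR against CON the difference was -0.04, with a 95% interval from -0.41 to 0.34.

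Zfp61, a KRAB gene at chr7:24291045-24303840, had 12.7, 13.4 and 12 CPM in SUR, 3.68, 4.97 and 3.56 CPM in LPS, and 13.9, 14.1 and 15.2 CPM in CON. The LPS libraries were 3.53-fold lower than CON (log2 fold change -1.82 ± 0.14, adjusted p = 7.05e-05), and SUR was 3.12-fold higher than LPS (1.64 ± 0.14, adjusted p = 0.000235). All 3 SUR libraries lay just below all 3 CON libraries, a difference of -0.18 that did not pass the test (adjusted p = 0.821).

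Zfp60, a KRAB gene, had 18.0, 19.9 and 20.2 CPM in SUR, 6.28, 4.97 and 6.67 CPM in LPS, and 16.8, 19.0 and 20.3 CPM in CON. LPS did not overlap either other group, while SUR and CON overlapped, and the log2 fold changes were -1.64 in LPS against CON (adjusted p = 7.85e-05) and 1.70 in SUR against LPS (adjusted p = 0.000191). Zfp398, a KRAB gene at chr6:47835633-47873542, had 26.4, 27.6 and 26.9 CPM in SUR, 8.56, 8.10 and 9.44 CPM in LPS, and 21.0, 26.7 and 27.9 CPM in CON. CON 1 was the lowest CON library and still lay above every LPS library. Its log2 fold changes were -1.53 in LPS against CON (adjusted p = 7.22e-05) and 1.63 in SUR against LPS (adjusted p = 0.000135).

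Zfp53, a KRAB gene whose promoter window holds the ETS core, at chr17:21488760-21533201, had 11.2, 10.2 and 8.95 CPM in SUR, 3.99, 3.34 and 3.23 CPM in LPS, and 10.8, 10.8 and 9.82 CPM in CON, with log2 fold changes of -1.57 in LPS against CON (adjusted p = 0.000111) and 1.52 in SUR against LPS (adjusted p = 0.000277). Again the LPS libraries alone stood low. The KRAB genes Zfp82, Zfp324, Zfp157 and Zfp442 were also lowest in LPS, with log2 fold changes between -1.54 and -1.26 in LPS against CON and between 1.34 and 1.69 in SUR against LPS. In SUR against CON these 4 genes differed by -0.06 to 0.15, and none passed the test. Of the genes in these paragraphs, each LPS against CON and SUR against LPS call held in all 17 alternative settings.

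A few Zfp genes moved the other way, with Zfp263 the largest rise. Zfp263, which encodes both a KRAB and a SCAN domain, at chr16:3744099-3750790, had 72.1, 90.6 and 103 CPM in SUR, 134, 161 and 177 CPM in LPS, and 52.5, 50 and 49.3 CPM in CON. The 3 groups did not overlap, with SUR between LPS and CON. It was 3.11-fold higher in LPS than in CON (log2 fold change 1.64 ± 0.14, adjusted p = 0.000105) and 1.78-fold lower in SUR than in LPS (-0.83 ± 0.14, adjusted p = 0.004). SUR exceeded CON by 0.81, with an interval from 0.49 to 1.13, which missed the threshold (adjusted p = 0.0579) and passed it under the replicate block (adjusted p = 0.000565). The other KRAB genes that rose in LPS were Zfp948 (0.71), Zfp719 (0.53) and Zfp655 (0.24), the last named after its value was seen. The call of Zfp948 (adjusted p = 0.0486) was lost in 8 of 17 settings, with adjusted p up to 0.167, among them without CON 2, CON 3, LPS 1, LPS 2, LPS 3 or SUR 2.

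Zfp703, a co-repressor of the NET family known in human as an oncogene of luminal breast cancer, had 29.7, 26.8 and 24.4 CPM in SUR, 42.4, 62.6 and 51.1 CPM in LPS, and 27.3, 24.1 and 26.3 CPM in CON. LPS lay above both other groups, which overlapped, with log2 fold changes of 1.01 in LPS against CON (adjusted p = 0.00124) and -0.95 in SUR against LPS (adjusted p = 0.00226). Zfp281, a C2H2 factor studied for its control of Nanog in mouse embryonic stem cells, had 59.1, 55.2 and 58.8 CPM in SUR, 88.0, 72.0 and 81.6 CPM in LPS, and 53.7, 52.8 and 54.1 CPM in CON. Its levels were 1.5-fold higher in LPS than in CON (adjusted p = 0.000936) and 1.40-fold lower in SUR than in LPS (adjusted p = 0.00339), and the SUR libraries lay slightly above the CON libraries (0.11, adjusted p = 0.818).

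Smaller rises in LPS with falls in SUR against LPS were seen for Zfp513 (0.54 and -0.39), Zfp593 (0.53 and -0.37) and Zfp800 (0.64 and -0.36). Zfp622 (0.37 and -0.30) and Zfp653 (0.33 and -0.40) followed the same order. Zfp593 and Zfp622 are factors of large ribosomal subunit maturation. The SUR against LPS calls of Zfp513, Zfp622, Zfp653 and Zfp800 were lost in 1, 3, 6 and 5 of 17 settings, with adjusted p up to 0.0507, 0.116, 0.0788 and 0.0773. Single libraries whose absence ended these calls were SUR 2 for Zfp513, SUR 3 for Zfp622, LPS 2, LPS 3, SUR 2 or SUR 3 for Zfp653, and LPS 1, LPS 3, SUR 2 or SUR 3 for Zfp800. The LPS against CON call of Zfp653 was lost in 12 of 17 settings, with adjusted p up to 0.182, among them without any 1 library other than CON 2 and SUR 1.

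**Figure D4:**
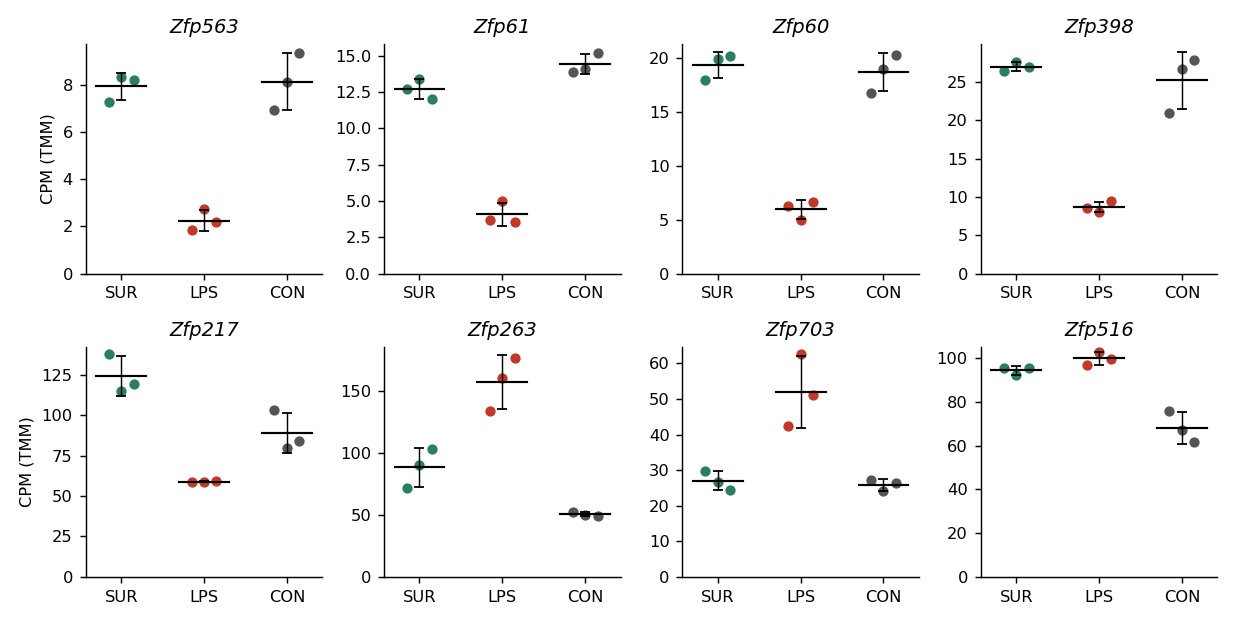
CPM (vertical axes, from 0) of 8 Zfp genes in each library of SUR, LPS and CON; points are libraries, horizontal lines group means and error bars SD (n = 3). Zfp563, Zfp61, Zfp60, Zfp398 and Zfp217 are lowest in LPS, Zfp263 and Zfp703 are highest in LPS, and Zfp516 is lowest in CON.

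All 3 SUR libraries lay above all 3 CON libraries for 35 of the 206 Zfp genes and below them for 7. Of the 8852 other genes of similar mean count, 726 lay above and 645 below in this way. Zfp217 and Zfp516 were among the 35, as were Zfp263 and Zfp281 described above. Zfp217, a C2H2 protein of CoREST co-repressor complexes and known in human as an amplified oncogene, had 138, 115 and 119 CPM in SUR, 58.9, 58.5 and 59.2 CPM in LPS, and 103, 79.6 and 84.0 CPM in CON. The groups did not overlap, with SUR highest. It fell in LPS against CON (-0.59 ± 0.11, adjusted p = 0.00451) and rose in SUR against LPS (1.07 ± 0.11, adjusted p = 0.000367). SUR exceeded CON by 0.48, with an interval from 0.24 to 0.72, which did not pass the test (adjusted p = 0.129) and passed it under the replicate block (adjusted p = 0.000771). Zfp516, a C2H2 activator known from mouse brown fat, had 95.8, 92.3 and 95.7 CPM in SUR, 97.1, 103 and 99.9 CPM in LPS, and 75.8, 67.1 and 61.6 CPM in CON. Both treated groups lay above CON, by 0.47 in SUR (adjusted p = 0.0495) and 0.55 in LPS (adjusted p = 0.00132), and SUR against LPS did not pass the test (-0.08, adjusted p = 0.566). The SUR against CON call, the 1 such call among the Zfp genes, was lost in 10 of 17 settings, with adjusted p up to 0.246, among them without any 1 library other than CON 1.

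Of the 6 most abundant Zfp genes only Zfp263 and Zfp330 were called in LPS against CON. By mean FPKM the 6 were Zfp706 (213), Zfp207 (58.0), Zfp106 (46.7), Zfp330 (38.0), Zfp263 (33.1) and Zfp91 (31.3). Zfp706, a small protein known as a repressor of Klf4 in mouse embryonic stem cells, had 166, 175 and 178 CPM in SUR, 151, 158 and 161 CPM in LPS, and 164, 166 and 167 CPM in CON. LPS lay slightly lowest, yet neither LPS against CON (-0.08, adjusted p = 0.41) nor SUR against LPS (0.14, adjusted p = 0.119) passed the test; the SUR against LPS difference passed under the replicate block (adjusted p = 0.00724). Zfp91, a ubiquitin ligase of the noncanonical NF-κB pathway, had 195, 154 and 145 CPM in SUR, 207, 151 and 147 CPM in LPS, and 198, 159 and 150 CPM in CON. The library numbered 1 was highest in each group and the groups overlapped throughout.

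Zfp207, a spindle assembly and Bub3-binding protein, and Zfp106, an RNA-binding protein, had log2 fold changes of 0.01 and 0.11 in LPS against CON, neither past the test. Zfp330, a nucleolar protein, rose by 0.31 in LPS against CON (adjusted p = 0.0369), a call lost in 8 of 17 settings, with adjusted p up to 0.228, among them without CON 2, CON 3, LPS 1, LPS 3 or SUR 3. Zfp143, a promoter-binding activator, Zfp64, Zfp292, Zfp318, a splicing regulator of the IgD transcript in B cells, Zfp326 of the DBIRD complex, which links splicing with RNA polymerase II, and Zfp638 were called in no comparison without the block, with log2 fold changes between -0.33 and 0.09 in LPS against CON. Under the replicate block Zfp64 (-0.33, adjusted p = 0.00594) and Zfp292 (-0.28, adjusted p = 0.009) passed as lower in LPS against CON, and both passed as higher in SUR against LPS. Zfp148, which binds GC-rich promoters, rose in SUR against LPS (0.27, adjusted p = 0.0199), a call lost in 4 of 17 settings, with adjusted p up to 0.0845, namely without LPS 2, LPS 3, SUR 2 or SUR 3. Zfp809, a KRAB protein that silences murine leukaemia virus in mouse embryonic stem cells, had 13, 10.3 and 12.2 CPM in SUR, 11.3, 8.17 and 10.2 CPM in LPS, and 10.8, 8.46 and 9.88 CPM in CON. Its groups overlapped and no difference passed the test without the block (LPS against CON 0.03, adjusted p = 0.95). Under the replicate block its differences of 0.26 in SUR against LPS (adjusted p = 0.0246) and 0.29 in SUR against CON (adjusted p = 0.0462) passed.

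Position on the chromosome was then compared. Runs of at least 3 of these Zfp genes with no gap over 1000000 bases between neighbours held 106 of the 206, 80 of them KRAB genes, in 19 runs. In the runs 55 of 106 genes fell and 3 rose in LPS against CON, and outside them 29 of 100 fell and 12 rose. Within the KRAB subgroup the split by position was small, with 45 of 80 lower in runs (56.2%) and 20 of 34 lower outside (58.8%). KRAB genes that rose numbered 2 in runs (2.5%) and 2 outside (5.88%). All 5 genes of the run at chr15:75615200-76892395 (Zfp41, Zfp623, Zfp707, Zfp251 and Zfp7) fell in LPS against CON and rose in SUR against LPS. The largest run, at chr17:21008941-23564226, held 14 KRAB genes, of which 9 fell and 1 rose in LPS against CON. Genes of this run moved in opposite directions: Zfp53 fell by 1.57 while Zfp948 rose by 0.71, a call lost in 8 of 17 settings. Runs were chosen after earlier results of these data were known, and genes of 1 run are related copies and no independent observations.

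**Figure D5:**
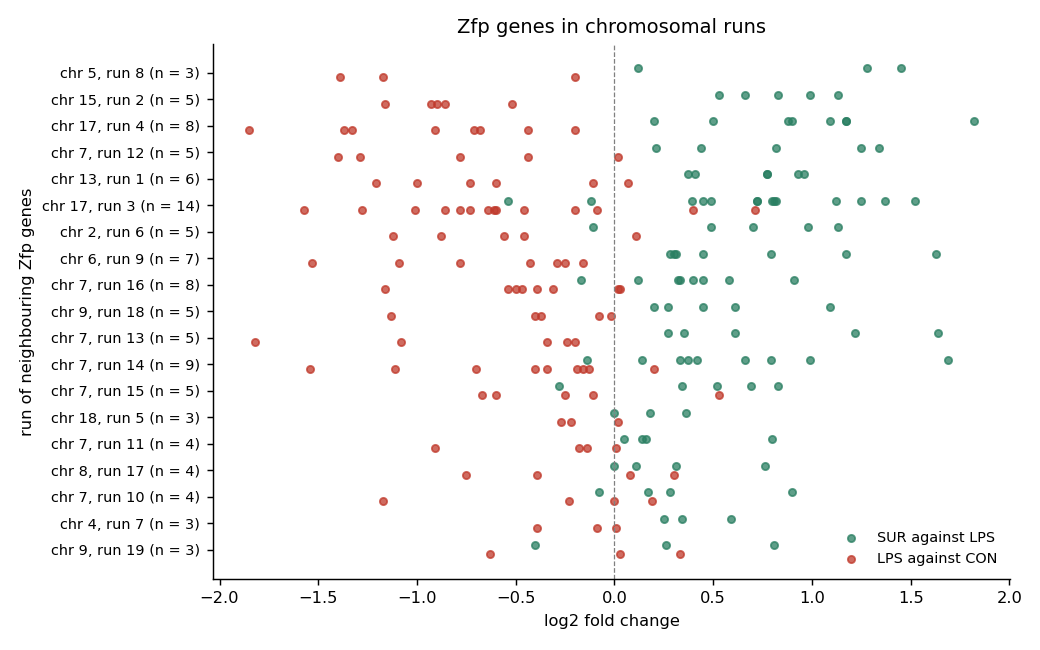
Log2 fold change (horizontal axis) of each Zfp gene in SUR against LPS (green) and LPS against CON (red), by run of neighbouring Zfp genes (vertical axis, ordered by the run's median in LPS against CON, lowest at the top). The runs of chromosomes 15 and 17 lie near the top, and the run of chromosome 17 with 14 genes spans values from -1.57 to 0.71 in LPS against CON.

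KRAB proteins act through TRIM28, SETDB1 and their partners. Of 23 tested genes of this co-repressor machinery, 1 fell and 1 rose in LPS against CON (4.35% each), where 9.36% and 8.98% of all tested genes did, and 3 rose (13%) and 0 fell in SUR against LPS, where 9.29% and 7.93% did. Under the replicate block 12 (52.2%) fell and 4 (17.4%) rose in LPS against CON, where 21.7% and 20.1% of all tested genes did. In SUR against LPS 9 (39.1%) rose and 3 (13%) fell under the block, where 22.6% and 22.7% did. With upper-quartile scaling 7 (30.4%) fell and 0 rose in LPS against CON, where 15.1% and 6.78% of all tested genes did. The 3 that rose in SUR against LPS were Atf7ip (0.66), the partner of SETDB1, Morc3 (0.34) and the heterochromatin protein gene Cbx5 (0.47). Morc3, which silences endogenous retroviruses, was the gene that fell (-0.31, adjusted p = 0.00497), and Chd4, the remodelling ATPase of the NuRD complex, the gene that rose (0.29, adjusted p = 0.0288). Trim28 averaged 215, 208 and 232 CPM in SUR, LPS and CON, and Setdb1 averaged 158, 139 and 158 CPM. Without the block neither gene passed the test in LPS against CON (Trim28 -0.15, adjusted p = 0.277; Setdb1 -0.19, adjusted p = 0.24). Under the replicate block both passed as lower in LPS (Trim28 adjusted p = 0.00962; Setdb1 adjusted p = 0.00335), and Setdb1 also passed as higher in SUR against LPS (0.18, adjusted p = 0.00393).

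Counts without the block for other zinc finger families stand against the same shares of all tested genes. These were 9.36% lower and 8.98% higher in LPS against CON and 9.29% higher and 7.93% lower in SUR against LPS. Of 15 tested Zkscan and Zscan genes, whose proteins share the SCAN or KRAB domain, 7 (46.7%) fell and 1 (6.67%) rose in LPS against CON, and 8 (53.3%) rose and 1 (6.67%) fell in SUR against LPS. Zkscan14 changed by -1.86 and 1.61. Of 39 tested Zbtb genes, which pair fingers with a BTB domain, 12 (30.8%) fell and 5 (12.8%) rose in LPS against CON, and 11 (28.2%) rose and 5 (12.8%) fell in SUR against LPS. Zbtb14 changed by -1.37 and 1.47 and Zbtb8b by 2.41 and -1.29. Of 16 tested Zc3h genes, whose CCCH fingers bind RNA, 1 (6.25%) fell and 7 (43.8%) rose in LPS against CON, and 2 (12.5%) rose and 5 (31.2%) fell in SUR against LPS. On FPKM the last split turned to 4 higher and 3 lower, where 17.5% and 4.48% of all tested genes were higher and lower. Zc3h12c changed by 3.39 and -2.38. Under the replicate block 21.7% of all tested genes were lower and 20.1% higher in LPS against CON. Of the Zkscan and Zscan genes 9 (60.0%) were lower and 1 (6.67%) higher under it. These numbers were 19 (48.7%) and 9 (23.1%) for the Zbtb genes and 2 (12.5%) and 10 (62.5%) for the Zc3h genes. In SUR against LPS 22.6% of all tested genes were higher and 22.7% lower under the block. Of the Zkscan and Zscan genes 11 (73.3%) were higher and 1 (6.67%) lower there. The Zbtb genes had 19 (48.7%) higher and 7 (17.9%) lower, and the Zc3h genes 4 of 16 higher and 11 of 16 lower. Zfp36, the CCCH protein tristetraprolin that was set aside, had 1080, 922 and 1080 CPM in SUR, 915, 885 and 882 CPM in LPS, and 370, 169 and 112 CPM in CON. It rose in LPS against CON (2.04, adjusted p = 0.00435) and in SUR against CON (2.24, adjusted p = 0.0495), and SUR against LPS did not pass the test (0.20, adjusted p = 0.776).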

How the data were processed

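RNA-seq of 9 MH-S libraries was analysed from the deposited table. HISAT2 2.0.4 and the build GRCm38 (mm10) are named per the submitters' processing notes. The counting tool is not given in the sources used here, nor is the annotation release. The deposited expected counts are raw estimates of reads per gene, and 93.4% of them were whole. The authors also deposited FPKM and TPM, normalized for length and depth, log2 fold changes, and p-values and q-values from DESeq2, per the file headers; TPM and the authors' comparisons were not used for results. Domain classes came from the InterPro terms deposited beside each gene.

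Counts were rounded, filtered with filterByExpr and scaled with TMM (factors 0.934 to 1.04), and tested with edgeR 4.0.16 (R 4.3.3) in one fit of all 9 libraries, with Benjamini-Hochberg adjustment over 11281 genes and a threshold of 0.05. CPM values use the TMM-scaled totals. Alternatives used DESeq2 1.42.0 and limma 3.58.1 (voom, and limma-trend on log2(FPKM + 0.1)). The script was tested on simulated counts. Same-numbered libraries deviated together (correlations of deviations from group means 0.435 to 0.801 over genes). For each gene the deviations within a group cancel, so a deviation shared by the libraries numbered 1 also correlates the other numbers. Whether same-numbered libraries were matched is therefore not shown. The numbers were used as a block in an alternative fit only. The main fit had a mean per group and no block, so its p-values do not use the replicate numbers.

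The members and lists were chosen with earlier results of these data known. Genes were named by a rule: a list of well-studied members, per comparison the 8 largest rises and 8 largest falls among called members whose libraries do not overlap, and the 6 highest by mean FPKM. Promoters and coordinates of starts came from RefSeq (GRCm38.p6), which lists all 206 genes, 159 with the deposited coordinates. Intervals cover the spread between libraries and depth limits the genes of lowest count.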

Additional observations from a re-analysis of the deposited data

How the results depend on the processing

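No median log2 fold change of the 206 Zfp genes, and no log2 fold change of a called named Zfp gene, changed sign in any setting. The counts moved with the setting. In LPS against CON 84 Zfp genes were lower with the main settings, 122 under the replicate block and 64 without LPS 3. The Zc3h split in SUR against LPS (2 higher, 5 lower) turned to 4 higher and 3 lower on FPKM, and the median of the 145 other C2H2 genes without KRAB in LPS against CON turned from 0.009 to -0.086 with upper-quartile scaling and -0.115 on FPKM. In LPS against CON, 15 Zfp genes were higher with the main settings and 24 under the replicate block and 23 without the libraries numbered 1; the median of -0.318 became -0.42 on FPKM and -0.411 with upper-quartile scaling. These scalings move the median of all tested genes to -0.142 and -0.105; relative to other genes of similar mean count the Zfp median was -0.286 and -0.316. With a mean count of at least 200, 42 genes were lower, the median was -0.164 and its gap to other genes -0.172; with whole counts only, chosen after seeing the data, both were -0.239.

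In SUR against LPS, 8 genes were lower, against 5 on FPKM, 20 under the replicate block and 17 without the libraries numbered 1. The median of 0.395 became 0.523 on FPKM and 0.484 with upper-quartile scaling, where the median of all genes was 0.131 and 0.083. With a mean count of at least 200, 52 genes were higher, the median was 0.229 and the gap 0.26; at 50 or more the median was 0.443 and the gap 0.456; with whole counts only they were 0.33 and 0.351. In SUR against CON, 1 gene was higher, against 6 by DESeq2, 0 on FPKM, 2 with no filter, 0 with only the groups compared, 22 under the replicate block (3 lower) and 9 without the libraries numbered 1, where the median was 0.036. The cause was not tested; stricter count limits and whole counts leave fewer genes.

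Leaving out 1 library at a time gave 11 to 15 higher and 64 to 87 lower in LPS against CON, with medians of -0.336 to -0.253 and gaps of -0.332 to -0.257. SUR against LPS had 73 to 101 higher and 5 to 11 lower, medians of 0.356 to 0.417 and gaps of 0.379 to 0.432. SUR against CON had 0 to 3 higher and 0 lower, medians of 0.054 to 0.082 and gaps of 0.064 to 0.095. The count of SUR against LPS falls was 5 without SUR 2 or without SUR 3. The count of SUR against CON rises was 3 without CON 1. It was 0 without CON 2, CON 3, LPS 2, LPS 3, SUR 2 or SUR 3.

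Genes of lowest count have the widest intervals, with a median 95% half-width of 0.321 log2 units for KRAB genes and 0.235 for the others in LPS against CON.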
